A study of Homo sapiens with 7 samples.

Results

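The 4 class IIa histone deacetylase genes, HDAC4, HDAC5, HDAC7 and HDAC9, and TWIST1, the gene next to HDAC9 on chromosome 7, were followed in RH30 cells with and without BV6. All 5 were found by symbol among the 57189 gene rows of the deposited count table. They were chosen by family and position and by their values in the BV6 contrast of these same libraries, which were known from earlier results, so their differences between the groups are given as a description, with errors and no p. Counts of members past a threshold, known when the genes were chosen, are a description too.

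RH30 is an established line of alveolar rhabdomyosarcoma, a soft tissue tumor with features of skeletal muscle, and its genotype is labelled as wild type. Throughout, the study reports working with RH30 cells that express GFP and luciferase. BV6 is a Smac mimetic, a small molecule that triggers the loss of cIAP proteins and thereby activates NF-κB signaling. The poly(A) RNA of 4 untreated cultures and of 3 cultures that received BV6 (5 µM) over 24 h was sequenced. The 7 samples come from 1 cell line and are called biological replicates by the study, without a word in the labels on what separates them. Replicates 2, 3 and 4 of both groups share a BC label in their titles, while replicate 1 exists as untreated only, and the labels do not say what BC stands for. The p-values therefore measure the spread between these samples, which may in part be technical.

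Histone deacetylases remove acetyl groups from histones and other proteins. Those of class IIa have little catalytic activity of their own and act mainly as repressors that bind the MEF2 transcription factors and recruit a co-repressor complex that holds HDAC3. Kinases such as the calcium/calmodulin-dependent kinases and protein kinase D phosphorylate them, 14-3-3 proteins then hold them in the cytoplasm, and MEF2 target genes are released, a switch well studied in muscle differentiation. TWIST1 is a basic helix-loop-helix transcription factor of mesenchymal cells that can restrain myogenic factors and MEF2.

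The total count per sample ranged from 54070030 to 77220882, so that 3 counts, taken as the limit of detection, corresponded to 0.0389 to 0.0557 counts per 1000000 counts (CPM). The intervals and limits given here cover counting error only. All 8 rhabdomyosarcoma markers, among them MYOD1 and DES, were above 1 CPM in every sample, and their sum lay between 1882 and 2708 CPM in untreated and between 1229 and 2180 CPM in BV6 samples. Of the markers of other cells, 1 of 6 for leukocytes (NKG7), 1 of 4 for endothelium (PECAM1) and 0 of 4 for epithelium reached that level in every sample. Summed over the list, leukocyte markers lay between 8.80 and 12.9 CPM in untreated and between 6.62 and 10.7 CPM in BV6 samples, and the endothelial markers between 49.0 and 69.4 CPM and between 26.6 and 58.7 CPM. The endothelial sum was mostly PECAM1, at 48.3 to 68.2 and 25.0 to 56.6 CPM, while VWF was at 0.481 to 1.08 and 1.30 to 1.66 CPM without overlap. Epithelial markers summed to 0.631 to 0.841 CPM and to 0.701 to 0.855 CPM. The part of these markers in the results was not tested. The 4 NF-κB genes used as positive controls were higher in every BV6 sample than in every untreated sample. They were picked with earlier results of these data known, so nothing is read from that count. Over all tested genes, the groups did not overlap for 8.83%, in either direction. BIRC3, which encodes cIAP2, led the 4, with an average of 2.44 ± 1.57 CPM (SD, n = 4) without and 70.4 ± 27.4 CPM (SD, n = 3) with BV6.

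HDAC9 was the class IIa gene that differed most between the groups. Its protein exists in a full-length form and in a short form, MITR, that lacks the deacetylase domain and still represses MEF2. In the untreated replicates 1 to 4 it was counted at 3.75, 4.42, 4.60 and 5.34 CPM, from 289, 248, 277 and 330 counts. In the BV6 replicates 2 to 4 it reached 22.97, 18.1 and 13.6 CPM, from 1290, 1108 and 730 counts. Every BV6 sample was above every untreated sample, and the lowest BV6 sample was the one with the highest untreated partner. The means were 4.53 ± 0.651 CPM (SD, n = 4) and 18.2 ± 4.71 CPM (SD, n = 3). On the log2 scale the fitted difference was 2.01 with a standard error (SE) of 0.20, or 4.02-fold. Between samples of the same BC label, the ratio of BV6 to untreated was 5.20 for replicate 2, 3.93 for replicate 3 and 2.54 for replicate 4. In such bulk samples, a change in the number of cells that carry a transcript and one in the amount per cell cannot be told apart.

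**Figure D1:**
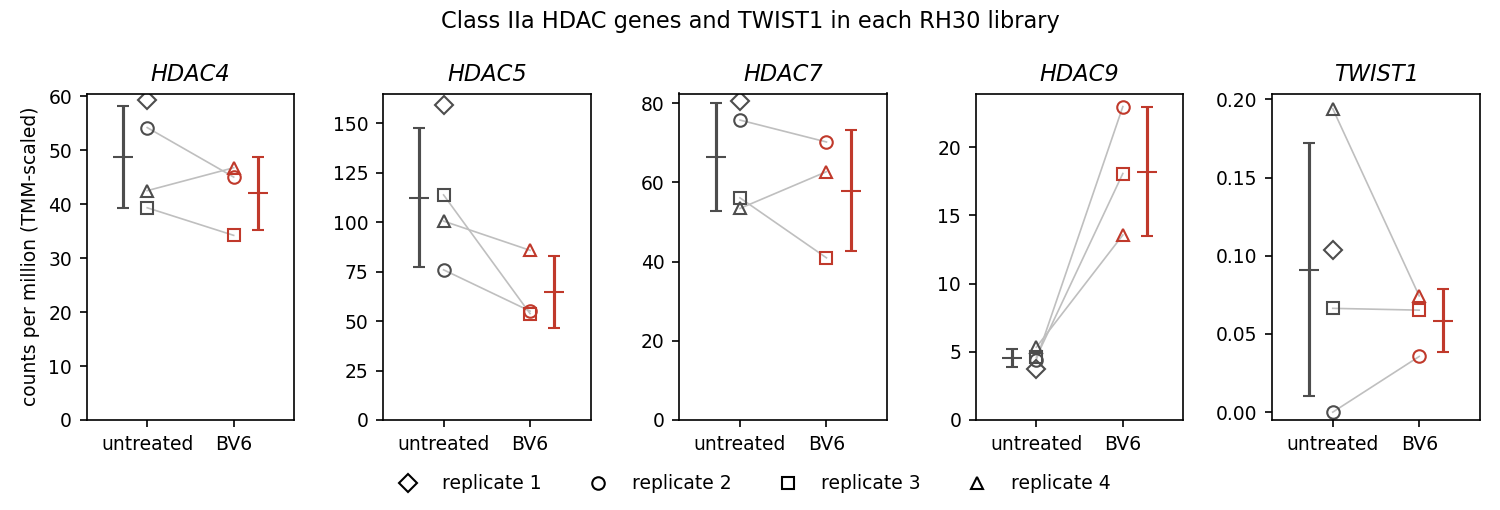
CPM of HDAC4, HDAC5, HDAC7, HDAC9 and TWIST1 (y axis, a separate scale for each gene) in the 4 untreated and 3 BV6 samples (x axis). Symbols mark the replicate number, gray lines join samples of the same BC label, and bars give the mean and SD. The groups are separate for HDAC9, at 3.75 to 5.34 CPM against 13.6 to 22.97 CPM, and overlap for the other 4 genes.

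HDAC9 lies on the plus strand of chromosome 7 (GRCh38, chr7:18086949-19002416) and is transcribed from several start sites, whose transcripts the gene count adds together. RefSeq lists 5 promoter windows for it on GRCh38.p14, each from 250 bases before to 50 bases after a start site. The most upstream window, chr7:18086575-18086874 on the plus strand, and the most downstream one, chr7:18509020-18509319 on the plus strand, are shown because they differ most in base composition and each holds a match to a factor named above. Capitals mark a match to the consensus of MEF2 in the first and of NF-κB in the second.
HDAC9 upstream window: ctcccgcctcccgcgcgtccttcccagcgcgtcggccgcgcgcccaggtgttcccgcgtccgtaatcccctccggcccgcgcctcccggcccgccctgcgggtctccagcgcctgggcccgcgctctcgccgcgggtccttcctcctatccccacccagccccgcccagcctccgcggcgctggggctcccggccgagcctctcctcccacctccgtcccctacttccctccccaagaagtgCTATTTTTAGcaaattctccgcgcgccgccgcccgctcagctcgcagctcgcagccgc
HDAC9 downstream window: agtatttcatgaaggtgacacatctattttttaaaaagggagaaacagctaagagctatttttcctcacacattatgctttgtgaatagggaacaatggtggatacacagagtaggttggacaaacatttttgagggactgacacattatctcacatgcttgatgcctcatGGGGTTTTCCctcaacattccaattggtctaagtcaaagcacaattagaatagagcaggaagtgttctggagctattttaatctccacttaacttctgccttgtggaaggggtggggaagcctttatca

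The upstream window was 75.0% G and C with 41 CpG dinucleotides, and the downstream window 40.0% with 0. Both strands were searched for the consensus sequences of MEF2 and NF-κB, for the AP-1 site TGANTCA, the cyclic AMP response element TGACGTCA, the GC box GGGCGG and the E-box CANNTG, the site of basic helix-loop-helix factors such as TWIST1. No 2 matches to different motifs overlapped within the windows shown. The MEF2 match began 8 bases before the upstream start site, and it was the only one in the 5 HDAC9 windows. Of all 34943 RefSeq windows of this length, 3.0% held a MEF2 match and 11.3% an NF-κB match. Such shares are per single window, whereas 5 windows of HDAC9 were searched and those shown were picked for holding a match. An E-box, present 1 time in the upstream and 2 times in the downstream window, was found in 68.7% of all windows. The upstream window also held 3 GC boxes, a motif of 44.9% of all windows. TGANTCA was present in 2 HDAC9 windows that share most of their bases, against 7.72% of all windows, and TGACGTCA in none of the 5, against 1.84%. HDAC4 had 5 windows and HDAC7 had 1, and none of these 6 held a match to the MEF2 or NF-κB consensus, TGANTCA or TGACGTCA. The windows for HDAC5 and TWIST1 were not analysed here. A match describes letters in the window only.

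HDAC5, a repressor of MEF2 best known from heart and skeletal muscle, had the largest difference in the other direction. It was counted at 159, 75.9, 114 and 101 CPM in untreated replicates 1 to 4 and at 55.0, 53.8 and 85.8 CPM in BV6 replicates 2 to 4. The highest BV6 sample lay above the lowest untreated sample, so the groups overlapped. The mean was 112 ± 35.1 CPM (SD, n = 4) against 64.9 ± 18.1 CPM (SD, n = 3), and the fitted log2 fold change was -0.79 (SE 0.25). All 3 pairs of the same BC label pointed the same way, with ratios of 0.725, 0.473 and 0.853. HDAC5 lies on the minus strand (chr17:44076746-44123702), and 24.0% of its exonic bases, 1826 of 7618, overlap exons of G6PC3 on the opposite strand. Whether the counting used the strand of the reads is not given in the sources used here, so reads of the overlap cannot be assigned with certainty. G6PC3, a glucose-6-phosphatase subunit, was counted at 47.3 ± 5.17 CPM (SD, n = 4) and 41.3 ± 6.67 CPM (SD, n = 3), with a log2 fold change of -0.20 (edgeR, adjusted p = 0.757).

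HDAC4, which restrains MEF2 in muscle and cartilage, had a difference close to its standard error. Its values were 59.3, 54.2, 39.3 and 42.5 CPM in untreated and 45.0, 34.2 and 46.8 CPM in BV6 samples. The groups overlapped, and the log2 fold change was -0.22 (SE 0.17). The ratios within a BC label were 0.831, 0.870 and 1.10, so that replicate 4 pointed the other way. HDAC4 lies on the minus strand (chr2:239048168-239401654) and shares exonic bases with opposite-strand lncRNAs, 258 with one not analysed here and 101 with HDAC4-AS1. The latter was counted at no more than 22 per sample.

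HDAC7, known from endothelial cells and thymocytes, had overlapping values too. Untreated samples held 80.5, 75.8, 56.1 and 53.4 CPM and BV6 samples 70.2, 41.0 and 62.7 CPM. The lowest value of all 7 was a BV6 sample, and the highest an untreated one without a partner. The log2 fold change was -0.20 (SE 0.21), with ratios of 0.927, 0.730 and 1.17 within a BC label, and it was 0.01 without BV6 replicate 3. HDAC7 lies on the minus strand (chr12:47782722-47833132) and shares 963 exonic bases (9.7%) with an opposite-strand lncRNA not analysed here, 117 with another, and 30 with the heme transporter gene SLC48A1.

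TWIST1 was close to the limit of detection in both groups. It had 8, 0, 4 and 12 counts in the untreated and 2, 4 and 4 counts in the BV6 samples, that is at most 0.194 CPM. Of the 7 libraries, 1 in each group was at or under 3 counts, and TWIST1 did not pass the filter on low counts, so no fold change was fitted. Of its exonic bases, 141 (7.06%) overlap an opposite-strand lncRNA not analysed here. Summed over the group, 24 untreated counts gave 0.0940 CPM (95% exact Poisson interval 0.0602 to 0.140) and 10 BV6 counts gave 0.0584 CPM (0.0280 to 0.107). The ratio of the sums was 0.621 with a counting interval of 0.265 to 1.35. No difference was detectable at this depth, and the interval leaves room for one in either direction. Even counts were in the majority among low values, 57.9% to 61.7% of the counts from 1 to 20. Every total also exceeded the highest number of reads that the study gives for a library, so some fragments were counted more than once. The 2 mates of a read pair may have been counted each, which would make these intervals too narrow.

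Of the 5 genes, 4 passed the filter on low counts. Of 23124 genes tested by edgeR's quasi-likelihood test, 104 (0.45%) passed at an adjusted p below 0.05 (Benjamini-Hochberg) and are termed called, 91 of them higher and 13 lower with BV6. Of the members, 1 (HDAC9) was among these 104. The CPM values of the groups did not overlap for 2041 of the 23124 genes (8.83%), again with HDAC9 among them. Both counts were known when the genes were chosen, and nothing is read from them. Over all tested genes the log2 fold changes had a median of -0.01.

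The level of the 4 class IIa genes relative to each other is given per length, as CPM divided by the exon length in kilobases (RPKM), over the union of a gene's GENCODE exons. In untreated cells HDAC5 was the highest with 14.8 ± 4.60 RPKM (SD, n = 4), followed by HDAC7 with 6.69 ± 1.38, HDAC4 with 3.44 ± 0.667 and HDAC9 with 0.262 ± 0.0377 RPKM. The ranges of neighbors in this order did not overlap, since HDAC5 was at least 9.97 where HDAC7 was at most 8.11, HDAC7 at least 5.38 where HDAC4 was at most 4.18, and HDAC4 at least 2.77 where HDAC9 was at most 0.309 RPKM. TWIST1 was lower still, at 0.0456 ± 0.0405 RPKM (SD, n = 4) in untreated and 0.0292 ± 0.0101 RPKM (SD, n = 3) in BV6 samples.

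In BV6 samples the order of the means was the same. HDAC5 stood at 8.52 ± 2.38, HDAC7 at 5.84 ± 1.53, HDAC4 at 2.96 ± 0.479 and HDAC9 at 1.05 ± 0.272 RPKM (SD, n = 3). The gap between HDAC5 and HDAC7 closed here, as the lowest HDAC5 sample (7.06 RPKM) lay just below the highest HDAC7 sample (7.07 RPKM), and with the longest coding transcript as the length HDAC7 came first, at 13.8 against 12.2 RPKM. HDAC9 remained the lowest of the 4, with at most 1.33 RPKM where HDAC4 had at least 2.41 RPKM. Summed over the 4 genes, the class IIa level was 25.2 ± 5.59 RPKM (SD, n = 4) in untreated and 18.4 ± 3.53 RPKM (SD, n = 3) in BV6 samples. By union exon length, every untreated sum was above every BV6 sum, by little at the closest, 21.68 against 21.66 RPKM. By the longest coding transcript the groups overlapped, as the sum of BV6 replicate 4 lay above that of untreated replicate 4. HDAC5 accounted for -6.24 of the mean difference of -6.79 RPKM, whereas HDAC9 added 0.791 RPKM. Untreated replicate 1 had the highest sum, 33.4 RPKM, and without it, a choice made after seeing the data, the mean difference was -4.03 RPKM, of which HDAC5 accounted for -4.19. The share of HDAC9 in the sum was 0.649% to 1.41% in untreated and 3.62% to 7.14% in BV6 samples.

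**Figure D2:**
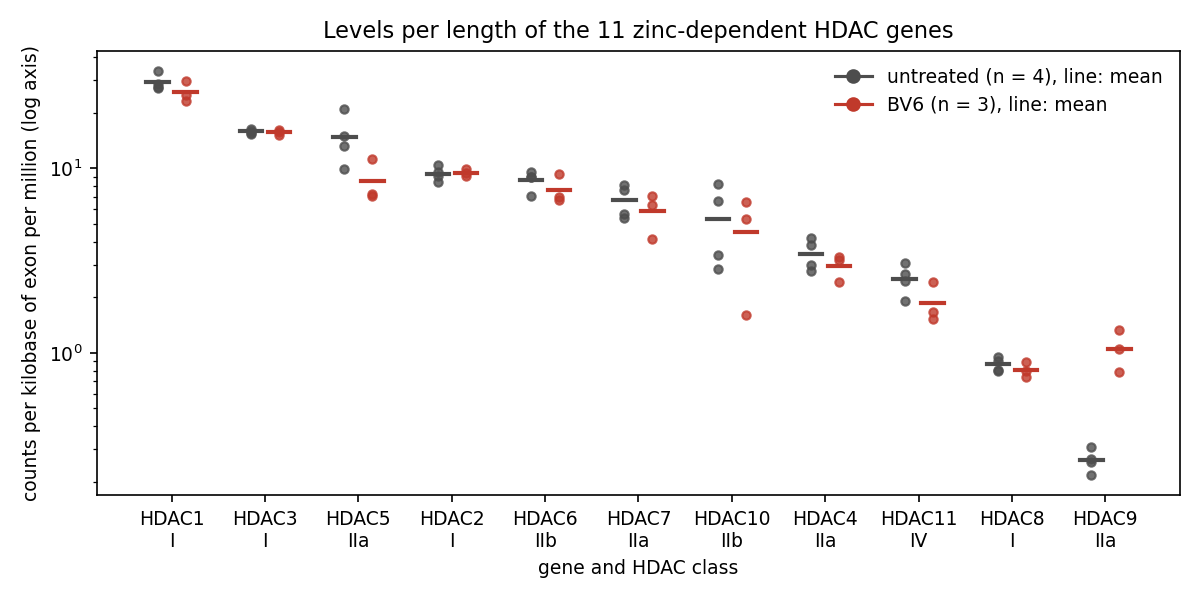
Levels of the 11 zinc-dependent HDAC genes in RPKM (y axis, log scale), ordered by the untreated mean, with the class of each gene under its name (x axis). Points are samples and lines are group means. HDAC9 is the lowest of the 11 in untreated cells (0.262 RPKM) and lies next to HDAC8 with BV6 (1.05 RPKM) by this union exon length, but not by longest-transcript length (1.80 against 3.24 RPKM).

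Among all 11 zinc-dependent HDAC genes, HDAC5 ranked 3 by the untreated level, HDAC7 ranked 6, HDAC4 ranked 8 and HDAC9 ranked 11. By the longest coding transcript, HDAC5 ranked 4 and HDAC7 ranked 5, with HDAC4 and HDAC9 as before. The other 7 genes include the class I nuclear enzymes HDAC1, HDAC2, HDAC3 and HDAC8, the cytoplasmic tubulin deacetylase HDAC6, and HDAC10 and HDAC11. They held 0 genes with an adjusted p below 0.05 (edgeR), against 0.45% of all tested genes. At an unadjusted p below 0.05 there were 0, against 8.39%, and DESeq2 called 0, against 1.61%. With so few genes, 0 is near these shares, and nothing is read from it. Log2 fold changes of the 7 genes ran from -0.43 for HDAC11 to 0.02 for HDAC2, with a median of -0.17. HDAC3, the catalytic partner of the class IIa proteins, stood at 73.1 ± 1.91 CPM (SD, n = 4) and 72.3 ± 2.18 CPM (SD, n = 3), with a fitted log2 difference of -0.01 (SE 0.09). HDAC8, the lowest of the others, had 0.866 ± 0.0750 RPKM (SD, n = 4) and 0.806 ± 0.0781 RPKM (SD, n = 3). With BV6, HDAC9 and HDAC8 overlapped, as the lowest HDAC9 sample had 0.784 RPKM and the highest HDAC8 sample 0.889 RPKM. By longest-transcript length they did not, with HDAC9 at most 2.27 and HDAC8 at least 2.95 RPKM, and HDAC9 remained the lowest of the 11. The sirtuins deacetylate with NAD as a cofactor. Of 7 sirtuin genes, 0 were called (edgeR), 1 had an unadjusted p below 0.05 and 0 were called by DESeq2, against the same shares. Their median log2 fold change was 0.01. The 1 gene at an unadjusted p below 0.05 was SIRT4, a mitochondrial sirtuin, with a log2 fold change of 0.54 (SE 0.18, edgeR adjusted p = 0.415).

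The genes around the class IIa proteins were taken as 9 lists by function. Together they held 92 distinct genes, of which 83 were tested, and 2 of the 83 were called higher and 0 lower, against 0.45% of all tested genes in either direction. At an unadjusted p below 0.05 there were 9 of the 83, against 8.39% of all tested genes, and DESeq2 called 4, against 1.61%. The groups did not overlap for 6 of the 83, against 8.83% of all tested genes. Their median log2 fold change was -0.01, as over all tested genes. The lists were made with earlier results of these data known, so these counts are a description and nothing is read from them. Counts for single lists, and for the genes near HDAC9, stand against the same shares of all tested genes.

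Both called genes were in the list of 17 class IIa kinases, all of them tested. CAMK2A, a subunit of calcium/calmodulin-dependent kinase II best known from neurons, was counted at 1.60, 1.26, 1.63 and 2.38 CPM in untreated and at 7.41, 5.77 and 8.82 CPM in BV6 samples. Its log2 fold change was 2.09 (SE 0.24, edgeR adjusted p = 0.00748). CAMK1G, a calcium/calmodulin-dependent kinase I, was counted at 0.0909, 0.143, 0.199 and 0.194 CPM and at 1.10, 0.554 and 0.966 CPM. It had a log2 fold change of 2.48 (SE 0.38, edgeR adjusted p = 0.0277) and kept its call in 1 of 7 fits with a sample removed, that without BV6 replicate 3, whereas CAMK2A was called in all 7. With the BC label as a block in the fit, CAMK1G was no longer called (edgeR adjusted p = 0.0561) and CAMK2A was (edgeR adjusted p = 0.00801). Neither gene's groups overlapped, and these 2 genes were known from the same libraries when the list was made.

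The related CAMK2B, the subunit of muscle and brain, lay lower in each BV6 sample than in each untreated one. It was at 3.63, 1.50, 3.20 and 2.22 CPM and at 0.801, 1.03 and 1.32 CPM, with a log2 fold change of -1.33 (SE 0.33) that did not pass the threshold (edgeR adjusted p = 0.198, DESeq2 adjusted p = 0.00848). The remaining kinases spread closely around 0. CAMK2D, the main isoform of heart, had a log2 fold change of 0.17 (SE 0.21), and STK11, which activates the salt-inducible kinases, one of -0.34 (SE 0.29). The protein kinase D genes PRKD1, PRKD2 and PRKD3 had log2 fold changes of 0.08, -0.24 and 0.04, and the salt-inducible kinases SIK1, SIK2 and SIK3 of -0.05, 0.16 and 0.10. The median of the list was 0.04.

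**Figure D3:**
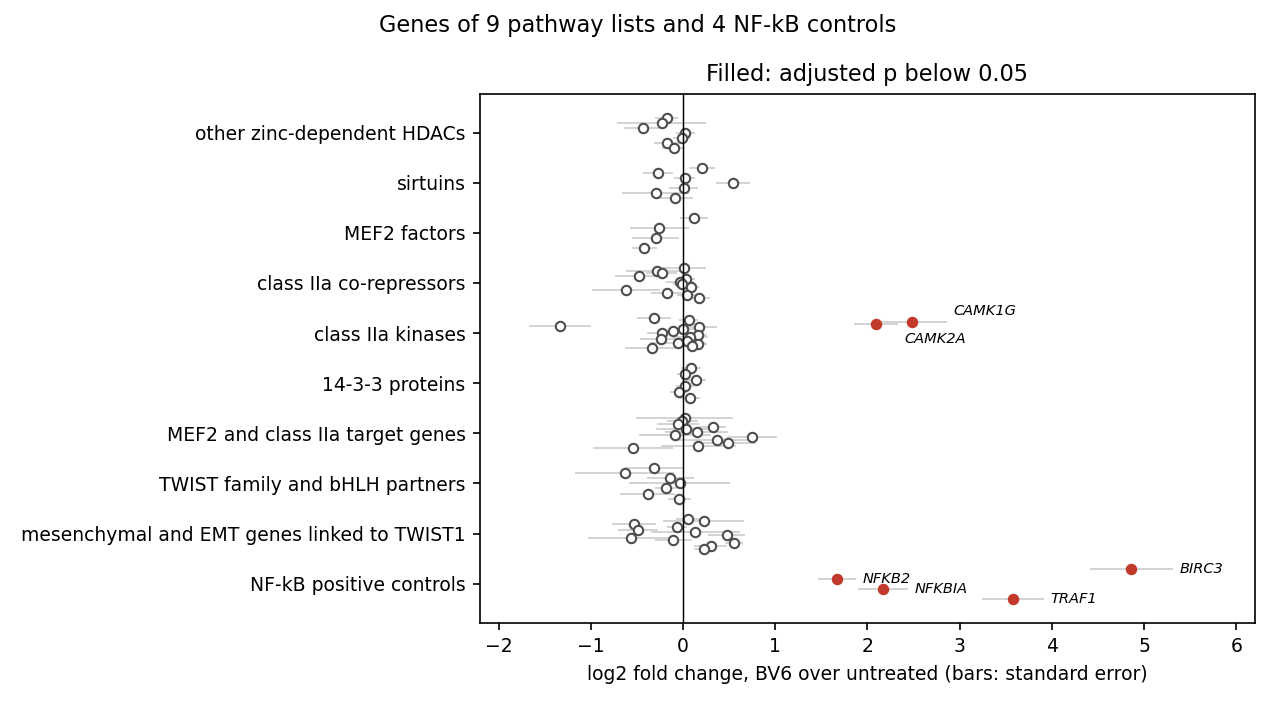
Log2 fold change of BV6 over untreated (x axis) for the tested genes of 9 lists and of 4 NF-κB genes used as positive controls (y axis). Points are genes, bars are standard errors, and filled points have an adjusted p below 0.05. CAMK2A (2.09) and CAMK1G (2.48) are the filled points among the pathway lists, and most other genes lie near 0.

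The MEF2 factors, the main partners of class IIa proteins, were all 4 tested, with 0 called (edgeR), 1 at an unadjusted p below 0.05 and 0 by DESeq2. MEF2A and MEF2C, at 98.6 and 78.1 CPM on average in untreated cells, had log2 fold changes of 0.12 (SE 0.15) and -0.30 (SE 0.25). MEF2D had one of -0.42 (SE 0.14, edgeR adjusted p = 0.392) and MEF2B, at 3.52 CPM in untreated cells, one of -0.26 (SE 0.32). In the list of 12 co-repressors, 0 genes were called (edgeR), 0 had an unadjusted p below 0.05 and 0 were called by DESeq2. NCOR1, a scaffold that binds HDAC3, had a log2 fold change of 0.08 (SE 0.09), and TBL1XR1, a further subunit, had 0.17 (SE 0.12). CTBP1, which binds class IIa proteins directly, had -0.48 (SE 0.25). The 14-3-3 genes lay within the narrowest range, from -0.05 for YWHAQ to 0.14 for YWHAG, with 6 of 7 tested, 0 called (edgeR), 0 at an unadjusted p below 0.05 and 0 by DESeq2.

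Genes under control of MEF2 and class IIa proteins held no called gene. Of 15 listed, 12 were tested, 0 were called (edgeR), 1 had an unadjusted p below 0.05 and 0 were called by DESeq2, with a median log2 fold change of 0.09. The myogenic factor MYOG was at 150 ± 53.8 CPM (SD, n = 4) and 154 ± 64.2 CPM (SD, n = 3), with a fitted log2 difference of 0.03 (SE 0.33). NR4A3, an orphan nuclear receptor, had the highest value of the list, 0.75 (SE 0.27, edgeR adjusted p = 0.480), followed by the glucose transporter SLC2A4 with 0.48 (SE 0.31). At the other end stood XIRP2 with -0.55 (SE 0.43) and NR4A2 with -0.08 (SE 0.39). JUN, itself a MEF2 target, was at 426 ± 64.2 CPM (SD, n = 4) and 424 ± 97.7 CPM (SD, n = 3).

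For TWIST1, the partners and the mesenchymal genes linked to it were listed. Of 10 relatives and partners, 7 were tested, with 0 called (edgeR), 0 at an unadjusted p below 0.05 and 0 by DESeq2. All 7 had a negative log2 fold change, from -0.63 (SE 0.54) for ID1, an inhibitor of basic helix-loop-helix dimers, to -0.03 (SE 0.55) for ID3, and the median was -0.18. The dimer partners TCF3, TCF4 and TCF12 had values of -0.38 (SE 0.30), -0.04 (SE 0.13) and -0.18 (SE 0.12). TWIST2, the closest relative, was at most 0.0167 RPKM in any sample and did not pass the filter.

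Of 14 mesenchymal genes, 12 were tested and 0 were called (edgeR). At an unadjusted p below 0.05 there were 3, against 8.39% of all tested genes, and DESeq2 called 1, against 1.61%. That gene was VIM, the intermediate filament of mesenchymal cells, with 2438, 2520, 2324 and 2439 CPM in untreated and 3925, 3247 and 3500 CPM in BV6 samples. The groups did not overlap, and the log2 fold change of 0.55 (SE 0.10) narrowly missed the threshold (edgeR adjusted p = 0.0561, DESeq2 adjusted p = 0.00183). With the BC label as a block, VIM was called (edgeR adjusted p = 0.0229), but it was called in 0 of 7 fits with a sample removed. The fibronectin gene FN1 and the PDGF receptor gene PDGFRB had log2 fold changes of -0.49 (SE 0.22) and 0.47 (SE 0.20). SNAI1, a repressor of E-cadherin, and CDH11, a mesenchymal cadherin, had the lowest values, -0.56 (SE 0.46) and -0.53 (SE 0.24). ZEB1, SNAI2 and ZEB2, transcription factors of the same program, were abundant in untreated cells at 259, 136 and 99.8 CPM.

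HDAC9 and TWIST1 are neighbors, and the end of HDAC9 is known from other studies to hold enhancers of TWIST1. The 2 gene models are separated by 18.6 kb, with TWIST1 on the minus strand (chr7:19020991-19117636), and their start sites lie 1030.7 kb apart. Genes of the count table were placed by a symbol that is unique in the annotation, or by a synonym for TWISTNB (POLR1F) and RNMTL1P2 (MRM3P2). Within 1 Mb of either gene lay 14 genes so placed, 12 of them besides HDAC9 and TWIST1. Of these 12, 3 passed the filter on low counts, and 0 of the 3 were called (edgeR), with 0 at an unadjusted p below 0.05 and 0 by DESeq2. The sorting nexin gene SNX13, with its start site at -146.4 kb relative to that of HDAC9, was at 35.3 ± 4.16 CPM (SD, n = 4) and 35.8 ± 3.42 CPM (SD, n = 3), with a fitted log2 difference of 0.02 (SE 0.13). TWISTNB, an RNA polymerase I subunit gene beyond TWIST1, had one of 0.21 (SE 0.14) and the ribosomal pseudogene RPL21P75, which shares its sequence with the RPL21 gene and its copies, one of 0.19 (SE 0.14). Another 5 of the 12 had at most 3 counts in every sample.

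**Figure D4:**
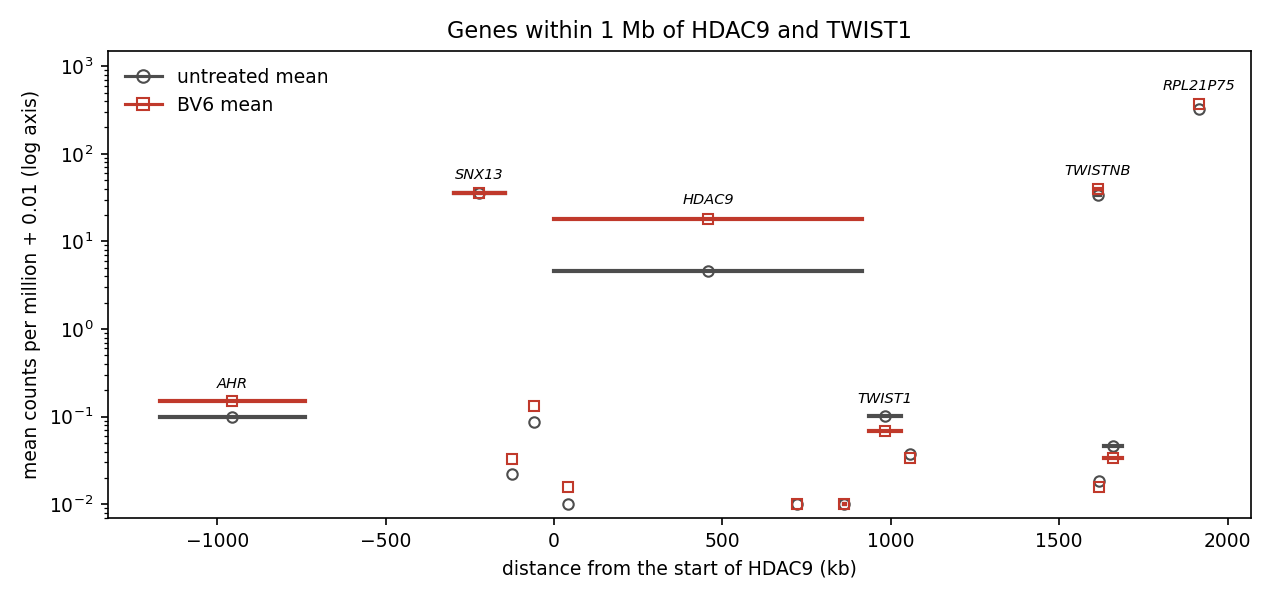
Mean CPM plus 0.01 (y axis, log scale) of the genes within 1 Mb of HDAC9 and TWIST1 against the distance from the start of HDAC9 in kb (x axis), with lines spanning each gene. HDAC9 stands apart between its groups (4.53 and 18.2 CPM), while SNX13 and TWISTNB nearly coincide and TWIST1 stays below 0.2 CPM in every sample.

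Finally, the genes whose log2 CPM followed each member most closely over the 7 samples were looked up among 17058 genes with a mean of at least 1 CPM. The points are 2 groups of the same libraries, so these correlations describe the pattern only. HDAC9 was followed by CTSS, which encodes the lysosomal protease cathepsin S (Pearson r = 0.997), SARS, a seryl-tRNA synthetase gene (r = 0.996), and the phosphodiesterase gene PDE10A (r = 0.991). CTSS was at 4.85 CPM on average in untreated and at 14.8 CPM in BV6 samples. The log2 fold changes differed in size, with 1.60 for CTSS, 0.55 for SARS and 0.44 for PDE10A against 2.01 for HDAC9. The genes nearest to HDAC5 were MEIS3, a homeobox gene (r = 0.991), PADI3, a peptidylarginine deiminase gene (r = 0.984), and C1QTNF1 (r = 0.984). For HDAC7 they were ANAPC2, a subunit of the anaphase-promoting complex, BX255925.3 and SF3A2, a splicing factor (each r = 0.997). HDAC4 was followed by AC009133.5 (r = 0.995), LRRC24 (r = 0.993) and TICAM1, an adaptor of Toll-like receptors (r = 0.990). For TWIST1 no such genes were sought, as its counts were near the limit of detection.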

How the data were processed

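Poly(A) RNA libraries, made with a stranded kit and sequenced as paired ends, were mapped by the authors to GRCh38 with STAR 2.6.1d, as named in the submitters' processing notes, and counted per gene over the union of its Ensembl isoforms. The deposited values are raw counts per gene symbol, used here as deposited. Whether strand was used, and how reads on several genes or mates were counted, is not given in the sources used here. Totals were 54070030 to 77220882 counts per sample, each above the highest number of reads that the study gives for a library.

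The 4 untreated and 3 BV6 samples were compared with the quasi-likelihood test of edgeR 4.0.16 (R 4.3.3), with condition as the only term, filterByExpr (minimum count 10), TMM factors, and Benjamini-Hochberg adjustment over all 23124 tested genes at 0.05. CPM values use TMM-scaled totals. Each SE of a log2 fold change is its absolute value divided by the square root of the F statistic of edgeR's test. Alternatives were DESeq2 1.42.0, RLE factors, no filter, at least 10 counts in every sample, the BC label as a replicate block, leaving out each sample and, added after seeing the data, a correction for GC content. The tests were checked on simulated counts. Exon lengths, positions and overlaps came from GENCODE 44 (GRCh38), matched by symbol for 36327 of 57189 rows. It is not the annotation release on which the study counted, which may affect the levels per length and their order.

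The members and the gene lists were chosen with earlier results of these data known. Named from each list were the called genes and up to 4 others with the highest and lowest fold changes, plus partners named for their role after their values were seen. Correlations used log2(CPM + 0.5). A gene of the co-repressor list is not reported here by name.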

Additional observations from a re-analysis of the deposited data

How the results depend on the processing

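In the 15 alternatives, HDAC9 had log2 fold changes from 1.82 to 2.18. HDAC5 stayed negative in all 15, from -1.05 to -0.47, and HDAC4 too, from -0.31 to -0.08. HDAC7 was negative in 12 of 15 and positive in 3, at 0.03 with GC correction, 0.03 with GC correction and the replicate block, and 0.01 without BV6 replicate 3. The count of members called, which their choice bears on and which supports nothing, was 1 (HDAC9). It was 2 with GC correction and the replicate block (HDAC9 and HDAC5). Over all genes, 104 calls became 401 with DESeq2, 242 with no filter on low counts, 218 with the replicate block, and 38 to 89 when 1 sample was left out. Among the 17460 genes with a known GC content, 92 calls became 202 with GC correction and 1196 with GC correction and the replicate block. The cause was not tested. Over the 9 lists, 2 calls became 4 with DESeq2 (CAMK1G, CAMK2A, CAMK2B, VIM). A minimum of 10 counts in every sample left 1 (CAMK2A). When 1 sample was left out, 1 to 2 remained (CAMK2A, joined by CAMK1G without BV6 replicate 3). With GC correction and the replicate block there were 9, those of DESeq2 and FN1, MEF2C, MEF2D, PDGFRB and TCF12. The lists of MEF2 factors and of TWIST1 partners were thus not free of calls in that fit. Genes within 1 Mb called stayed at 0 throughout.

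The GC correction could be fitted for 17460 of 23124 tested genes (75.5%), below the 80% needed, so it is void as a check over all genes. Samples of the same BC label correlated in their deviations from the group means by 0.462, 0.438 and 0.0847, and as the third is under 0.1 the labels were not taken to pair the samples. Centered on the 3 untreated samples with a partner, the values were 0.515, 0.322 and 0.197, all above it. BV6 replicates 2 and 3 correlated best with the untreated sample of their own label, and BV6 replicate 4 with untreated replicate 1. With the block, the log2 fold changes were -0.11 for HDAC4, -0.59 for HDAC5, -0.11 for HDAC7 and 1.90 for HDAC9, and the list calls were CAMK2A and VIM, with CAMK1G at an edgeR adjusted p of 0.0561.

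By the length of the longest coding transcript, untreated levels were 5.44 for HDAC4, 21.1 for HDAC5, 15.8 for HDAC7 and 0.447 RPKM for HDAC9, in the same order. The ratio of HDAC9 to TWIST1 was not run, since TWIST1 had 0 counts in untreated replicate 2. Depth limits TWIST1, at 12 counts or fewer per sample.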
